A study of Mus musculus with 6 samples.

Results

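The genes described here are 34 genes of the NRF2 antioxidant response and of the pentose phosphate pathway. They were taken by symbol from a list that was chosen with earlier results of these data known. The symbols were mapped to Ensembl identifiers with the GENCODE mouse annotation of GRCm38. All 34 were among the 55487 genes of the deposited count tables, and 33 of them had enough reads to be among the 13296 genes tested. RNA sequencing was done on primary hepatocytes, isolated from mice of the B6CBAF1 background fed regular chow and cultured without treatment. The WT group (3 libraries) came from littermates without a transgene. The Alb/MDA-9 group (3 libraries) came from heterozygous mice that carry the human scaffold protein syntenin, MDA-9/SDCBP, with a C-terminal HA tag under an albumin enhancer and promoter. That promoter is active in hepatocytes, so other cells of the cultures need not carry the protein. The human transgene was not counted in the mouse gene tables, so its expression was not checked here. The labels name no age or sex. Nothing in the labels says that the 3 libraries of a group came from separate animals or cultures, so p-values measure the spread between libraries, part of which may be technical.

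NRF2, encoded by Nfe2l2, is a transcription factor that is held at low levels by KEAP1, an adaptor that brings it to a ubiquitin ligase. Oxidants and electrophiles modify KEAP1, NRF2 then accumulates, pairs with a small MAF protein and binds antioxidant response elements, while the repressor BACH1 competes for the same elements. Targets in the liver make glutathione and thioredoxin, detoxify quinones and heme, and supply NADPH through the pentose phosphate pathway.

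Of the 33 tested members, 7 were lower and 4 were higher in Alb/MDA-9 (p under 0.05 by the quasi-likelihood test of edgeR after Benjamini-Hochberg adjustment). That is 21.2% lower and 12.1% higher, against 7.09% lower and 7.35% higher among all genes tested. The members and the lists below were chosen with earlier results of these data known. Their shares therefore describe the genes and do not test for an excess. The members and lists were also not matched to all genes for level, and the part of level in the shares was not tested. The genes that fell were Srxn1, Ugdh, Slc7a11, Nqo1, Bach1, Gsr and Gclm, and those that rose were Osgin1, Sqstm1, Sod2 and Gpx1. The changes were small, from 0.23 to 0.84 on the log2 scale in size, and the median change over the 33 genes was -0.04 against -0.0015 over all genes. The split depended on scaling: with library totals in place of TMM factors, which shifted the median of all genes by -0.10, 11 members were lower and 0 higher. Without WT 2 the counts were 4 lower and 0 higher, without WT 1 they were 4 and 2, without WT 3 they were 5 and 2, and without Alb/MDA-9 2 they were 4 and 1.

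Read depth was 16403918 to 19046739 reads on the annotated strand of genes per library. The hepatocyte gene Alb stood at 54048 to 58379 CPM in WT, against 55090 to 70170 CPM in Alb/MDA-9, where CPM is the read count scaled to the library's size with a TMM factor. Of 10 hepatocyte markers, all tested, 1 rose (10%) and 3 fell (30%). Among all genes tested 7.35% were higher and 7.09% lower, the background for this count and for the marker counts that follow. Markers of other liver cells were also read, and several fell in Alb/MDA-9. Of 13 Kupffer cell markers 9 fell and 0 rose, and their summed level was 420.4 to 433 CPM in WT, against 243 to 397 CPM in Alb/MDA-9. Of 10 endothelial markers 4 fell and 0 rose (262 to 284 against 200.2 to 218 CPM), and of 10 stellate cell markers 5 fell and 0 rose (304 to 322 against 205 to 267 CPM). Of 6 cholangiocyte markers 3 rose and 1 fell (52.8 to 60.9 against 251.5 to 360.1 CPM), with Spp1 at 171 to 279 CPM of the sum in Alb/MDA-9 and Cftr at 0 in all libraries. Of 7 lymphocyte and neutrophil markers 1 could be tested and did not pass, and the sum stayed at 1.33 to 2.52 CPM, with Nkg7 at 0 in all libraries. The stellate falls numbered 2, 3, 2 and 3 without WT 1, WT 2, WT 3 and Alb/MDA-9 2, and the Kupffer falls 6 without WT 1 or WT 2. In such mixed cultures fewer cells of a type and less RNA per cell cannot be told apart. The part of these cells in the results below was not tested, also where marker values are given. On the second principal component Alb/MDA-9 3 lay far from all other libraries, so member calls that changed when it was left out are reported. It also had the lowest Kupffer and stellate sums, 243 and 205 CPM. In Alb/MDA-9 1 and 2 these sums were 374 to 397 and 252.6 to 267 CPM. Without Alb/MDA-9 3 the Kupffer falls numbered 10 and the stellate falls 5.

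Antioxidant response elements share the core TGACNNNGC. This core was searched on both strands of the RefSeq promoters of GRCm38.p6, which run from 250 bases before to 50 bases after a start site. Of the 34 members, 30 had a promoter in that table (not Gclc, Gsr, Hmox1 and Prdx6), and 10 of them held at least 1 match, 33.3% against 13.99% of the 27025 genes in the table. Counted by promoter window, because some genes have several starts, matches were in 10 of 37 windows, against 12.4% of 32851. The matches are shown because they let the members be compared by the element that names the pathway. Each is printed 5′ to 3′ on the strand on which the core reads TGACNNNGC, with 10 flanking bases on each side and the core in capitals.
Srxn1 (chr2:152105542-152105570, minus strand): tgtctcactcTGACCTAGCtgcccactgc
Ugdh, upstream match (chr5:65435956-65435984, minus strand): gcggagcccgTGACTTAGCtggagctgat
Ugdh, downstream match (chr5:65435918-65435946, plus strand): ccgaactgtaTGACCACGCcccttgagga
Gclm (chr3:122245413-122245441, minus strand): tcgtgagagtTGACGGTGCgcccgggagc
Mafg (chr11:120633751-120633779, plus strand): ctcgccgggtTGACCGTGCtcctgcagag
Txnrd1 (chr10:82859104-82859132, minus strand): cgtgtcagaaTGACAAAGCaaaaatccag
Sod1 (chr16:90220696-90220724, minus strand): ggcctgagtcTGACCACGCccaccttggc
Nfe2l2 (chr2:75704885-75704913, minus strand): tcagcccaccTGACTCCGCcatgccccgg
Prdx1 (chr4:116685456-116685484, minus strand): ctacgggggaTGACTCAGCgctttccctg
Pgd (chr4:149166061-149166089, minus strand): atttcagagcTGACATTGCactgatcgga
G6pdx (chrX:74428919-74428947, plus strand): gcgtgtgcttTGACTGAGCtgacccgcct
The Prdx1 core also holds the AP-1 motif TGACTCA in full, and no other match does. The cores of Sod1 and of the downstream Ugdh match are the same 9 letters.

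In 3 of these promoters a match began within 3 bases of the same distance from the RefSeq start site. It began at -134 in Gclm, -133 in Prdx1 and -132 in Ugdh, counted to its most upstream base. The Ugdh match is on the gene's strand, and those of Gclm and Prdx1 are on the other strand. The GENCODE genes of Prdx1 and Ugdh begin farther upstream, at 116685544 and 65435949, so the distances from the GENCODE starts are not alike. The downstream Ugdh match lies inside the GENCODE gene. The stretch from 180 to 61 bases before the start is printed for them on the gene's own strand, with the cores in capitals, so that the surroundings of the element can be compared.
Gclm (chr3:122245377-122245496, plus strand): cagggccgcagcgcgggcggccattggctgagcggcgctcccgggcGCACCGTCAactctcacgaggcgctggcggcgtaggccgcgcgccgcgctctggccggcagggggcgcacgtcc
Prdx1 (chr4:116685419-116685538, plus strand): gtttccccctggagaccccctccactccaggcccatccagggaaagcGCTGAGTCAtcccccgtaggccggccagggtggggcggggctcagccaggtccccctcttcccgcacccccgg
Ugdh (chr5:65435903-65436022, minus strand): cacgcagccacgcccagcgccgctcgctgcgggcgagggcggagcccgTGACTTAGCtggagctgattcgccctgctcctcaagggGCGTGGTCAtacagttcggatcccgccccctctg
Of these 3 genes Gclm and Ugdh fell and Prdx1 did not pass the test. A core was present in 3 of the 10 changed members with a promoter and in 7 of the 19 tested members with a promoter that did not pass (no test). A match is a description of letters and not a binding site, and NRF2 elements that lie farther from a start site are outside the window.

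**Figure D1:**
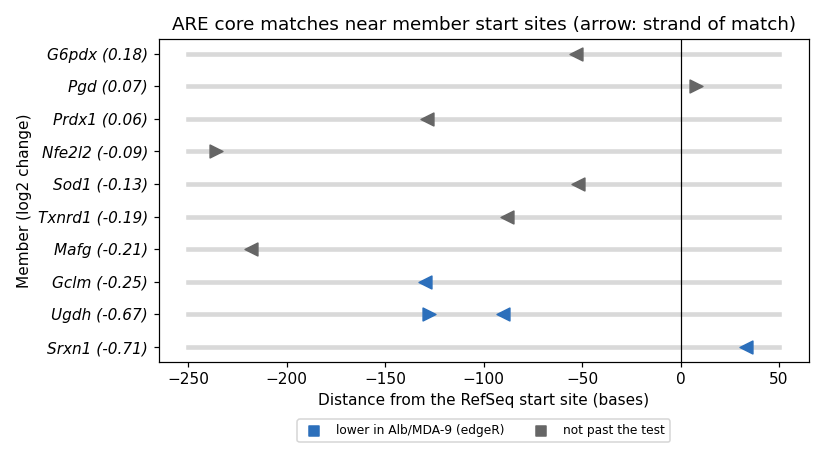
Position of each TGACNNNGC core match relative to the RefSeq start site (bases, grey bar from 250 before to 50 after the start) in the 10 member genes that hold one, ordered by log2 change, Alb/MDA-9 over WT. Arrows point right for the gene's strand and left for the other strand, and blue marks the 3 genes that were lower. The matches of Gclm and Prdx1 and the upstream match of Ugdh lie at nearly the same distance before the RefSeq start, but not before the GENCODE start.

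Of the 4 regulators of the pathway 1, Bach1, fell, and 0 rose (all genes tested: 7.09% lower, 7.35% higher). Roles, here and below, hold 2 to 7 tested genes, too few for their counts to be compared with those shares. Nfe2l2 (ENSMUSG00000015839, chromosome 2, 75675513 to 75704641), which encodes NRF2 itself, had 138, 128.5 and 136 CPM in WT 1 to 3 and 126.5, 125 and 127 CPM in Alb/MDA-9 1 to 3. All Alb/MDA-9 libraries were below all WT libraries, by a margin too small to pass the test (log2 change -0.09, SE 0.07, edgeR adjusted p = 0.411). Keap1 had 71.1 ± 4.32 CPM in WT, against 69.9 ± 2.66 CPM in Alb/MDA-9 (SD, n = 3), with overlapping libraries. Its exons overlap those of an antisense transcript, which stranded counting keeps apart.

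Bach1 (ENSMUSG00000025612, chromosome 16, 87698945 to 87733346), the repressor of Hmox1 and other NRF2 targets, had 69.7, 75.15 and 77.2 CPM in WT, against 68.1, 48.6 and 49.4 CPM in Alb/MDA-9. The Alb/MDA-9 libraries all lay below the WT libraries, 1 of them only just. The log2 change was -0.42 (SE 0.12, edgeR adjusted p = 0.0296), and the call was lost when WT 1, WT 2, WT 3 or Alb/MDA-9 2 was left out, where the log2 change was -0.46 to -0.33 and the edgeR adjusted p 0.0521 to 0.137. Mafg, which encodes a small MAF partner of both NRF2 and BACH1, had 107 ± 4.30 and 92.2 ± 5.25 CPM without overlap between the groups, but did not pass (log2 change -0.21, SE 0.07, edgeR adjusted p = 0.0747). It passed with library totals (log2 change -0.31) or upper-quartile factors (log2 change -0.25). Mafg shares exon sequence with Sirt7 on the same strand, where reads over both genes are not counted.

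Among the enzymes that act on quinones, heme and carbonyls, 2 of 7 fell and 0 rose (all genes tested: 7.09% lower, 7.35% higher). Ugdh (ENSMUSG00000029201, chromosome 5, 65413221 to 65435949) encodes UDP-glucose dehydrogenase, which makes the UDP-glucuronic acid used for glucuronidation. It had 465, 530.4 and 504 CPM in WT, against 358, 350.2 and 235 CPM in Alb/MDA-9. The groups were well apart, with the lowest value in Alb/MDA-9 3. Ugdh fell by 0.67 on the log2 scale (SE 0.13, edgeR adjusted p = 0.00489), and it passed under each of the 13 alternative settings, with log2 changes of -0.78 to -0.50. The annotated gene Gm43552 overlaps its exons on the same strand.

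Nqo1 (ENSMUSG00000003849, chromosome 8, 107388225 to 107403206), the quinone reductase often used as a readout of NRF2, was low in these cells. It had 11.7, 8.15 and 6.86 CPM in WT, from 116 to 231 reads, and 3.98, 4.48 and 6.56 CPM in Alb/MDA-9, from 72 to 109 reads. The groups did not overlap, but WT 3 and Alb/MDA-9 3 were close to each other. The log2 change was -0.84 (SE 0.23, edgeR adjusted p = 0.0322). The call was lost without WT 1, WT 2, Alb/MDA-9 1 or Alb/MDA-9 2 (log2 change -0.90 to -0.59, edgeR adjusted p 0.0715 to 0.162), and with the replicate number as a block (log2 change -0.83, edgeR adjusted p = 0.0522).

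Hmox1 (ENSMUSG00000005413, chromosome 8, 75093621 to 75100589) encodes heme oxygenase 1, which opens the heme ring and is also strongly expressed by macrophages of the liver that take up red blood cells. It had 483, 461 and 451 CPM in WT, against 388.5, 345 and 161.5 CPM in Alb/MDA-9. All Alb/MDA-9 libraries were below all WT libraries, and Alb/MDA-9 3 was far below the other libraries of its group. With that spread Hmox1 did not pass (log2 change -0.64, SE 0.22, edgeR adjusted p = 0.0778). Without Alb/MDA-9 3 the difference was smaller and passed (log2 change -0.35, edgeR adjusted p = 0.00327), and it also passed without Alb/MDA-9 1 (log2 change -0.88, edgeR adjusted p = 0.0294). It passed with the replicate block (log2 change -0.73, edgeR adjusted p = 0.0195), with library totals (log2 change -0.75) and without a low-count filter (log2 change -0.65). The macrophage gene Cd68 was low in the same library, at 322, 284 and 137 CPM in Alb/MDA-9 1 to 3 against 262 to 284 CPM in WT. The other 12 Kupffer markers summed to 149 to 158 CPM in WT, against 74.8, 90.2 and 105 CPM in Alb/MDA-9 1 to 3. Their sum was not lowest in Alb/MDA-9 3. The part of macrophages in the Hmox1 values was not tested.

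Blvrb, which encodes the biliverdin reductase B that acts after heme oxygenase, had 81.1 ± 1.61 and 82.6 ± 6.13 CPM (SD, n = 3). The carbonyl reductase gene Cbr1 had 31.8 ± 2.17 and 30.9 ± 3.91 CPM, and the aldehyde oxidase gene Aox1 72.2 ± 2.76 and 72.9 ± 4.78 CPM. The libraries of both groups overlapped for these 3 genes. Cbr3, a second carbonyl reductase gene, was near the limit of testing, with 23 to 30 reads per WT library and 10 to 17 per Alb/MDA-9 library. Its levels were 1.31, 1.18 and 1.775 CPM in WT, against 0.5525, 0.99 and 0.602 CPM in Alb/MDA-9, without overlap, and the log2 change of -0.98 had an SE of 0.38 (edgeR adjusted p = 0.114).

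Of the 5 genes of glutathione synthesis and recycling, 3 fell and 0 rose (all genes tested: 7.09% lower, 7.35% higher). Slc7a11 (ENSMUSG00000027737, chromosome 3, 49892526 to 50443614) encodes the light chain of the cystine-glutamate exchanger, which brings in the cystine from which glutathione is built. It had 70.1, 68.5 and 73.02 CPM in WT, against 40.9, 48.45 and 48.4 CPM in Alb/MDA-9. The groups were far apart and the replicates close together. Slc7a11 fell by 0.62 on the log2 scale (SE 0.08, edgeR adjusted p = 0.000375), and it passed under all 13 alternative settings. An annotated transcript of it holds 373 bases that are 96.25% identical to the alpha-tubulin gene Tuba1b (14.05 and 10.2 CPM), 95.98% to Tuba1a (112 and 152 CPM) and 95.44% to Tuba1c (127 and 139 CPM), so reads there could be shared or lost.

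Glutamate-cysteine ligase, the rate-limiting enzyme of glutathione synthesis, has a catalytic and a modifier subunit, and of their genes the modifier's fell. Gclm (ENSMUSG00000028124, chromosome 3, 122245557 to 122270732), the modifier, had 194.5, 179 and 176 CPM in WT, against 159.9, 160.3 and 143 CPM in Alb/MDA-9. The annotated pseudogene Gm6061 overlaps its exons on the same strand, where reads over both genes are not counted. The groups did not overlap (log2 change -0.25, SE 0.07, edgeR adjusted p = 0.0451). This call lay at the threshold and ended when any single library was left out (log2 change -0.27 to -0.20, edgeR adjusted p 0.0564 to 0.143) and with the replicate block (log2 change -0.25, edgeR adjusted p = 0.0617). Gclc (chromosome 9, 77754535 to 77794485), the catalytic subunit, had 1726, 1725 and 1934 CPM in WT, against 2358, 2276 and 1891 CPM in Alb/MDA-9. Alb/MDA-9 3 lay inside the WT range, the others above it, and Gclc did not pass (log2 change 0.28, SE 0.09, edgeR adjusted p = 0.0696). Without Alb/MDA-9 3 it passed as higher (log2 change 0.37, edgeR adjusted p = 0.00202), as it did with DESeq2 and without a low-count filter. The difference between the subunits was not tested.

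Gsr (ENSMUSG00000031584, chromosome 8, 33652523 to 33698163), the glutathione reductase that regenerates reduced glutathione with NADPH, had 419, 449 and 457 CPM in WT, against 359, 352 and 345 CPM in Alb/MDA-9. The Alb/MDA-9 libraries were close together and all below the WT libraries. Gsr fell by 0.33 on the log2 scale (SE 0.07, edgeR adjusted p = 0.00666). It passed under all 13 alternative settings, though at the threshold in the weakest (highest edgeR or DESeq2 adjusted p = 0.0495). Gss, which encodes the second enzyme of glutathione synthesis, had 165 ± 0.993 and 151 ± 18.3 CPM (SD, n = 3). Its Alb/MDA-9 values ran from 132 to 169 CPM around nearly constant WT values, and it did not pass.

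Of the 2 glutathione peroxidase genes that could be tested, 1 rose and 0 fell (all genes tested: 7.35% higher, 7.09% lower). Gpx1 (ENSMUSG00000063856, chromosome 9, 108338903 to 108340343), the main cytosolic peroxidase of hepatocytes, had 878, 820.7 and 850.2 CPM in WT, against 985, 976 and 1035 CPM in Alb/MDA-9. The groups did not overlap, and the rise was small (log2 change 0.23, SE 0.07, edgeR adjusted p = 0.0422). It lost the call without any single library except Alb/MDA-9 3 (log2 change 0.21 to 0.26, edgeR adjusted p 0.0538 to 0.204). It also lost it with the replicate block (edgeR adjusted p = 0.0859), with library totals (log2 change 0.13), with upper-quartile factors (log2 change 0.19) and with the stricter low-count filter. Gpx4, which reduces lipid peroxides in membranes and protects from ferroptosis, had 50.7 ± 3.44 and 51.2 ± 3.81 CPM, with a pseudogene (Gpx4-ps2, 10.1 and 8.48 CPM) 99.7% identical over 733 bases that can take some of its reads. Gpx2, the peroxidase of intestinal epithelium, had 2 reads in WT 3 and 0 in each other library, which allows up to 0.158 to 0.179 CPM there (3 reads, counting error only).

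**Figure D2:**
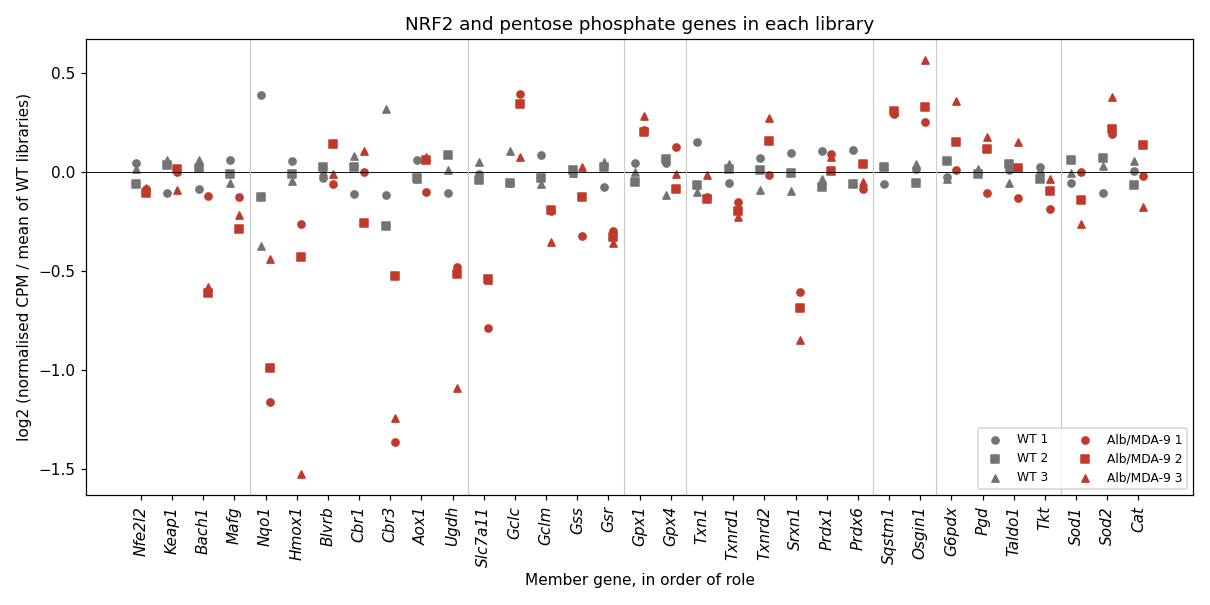
Each point is 1 library's normalised CPM divided by the mean of the WT libraries, on a log2 scale, for the 33 tested members in order of role (grey WT, red Alb/MDA-9, marker shape for the library number). Srxn1, Slc7a11, Ugdh and Gsr show all red points below the grey ones, Hmox1 shows 1 red point far below, and Sqstm1, Osgin1, Gpx1 and Sod2 show all red points above.

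In the thioredoxin system 1 of 6 genes fell (all genes tested: 7.09% lower), and it had the smallest adjusted p of all members. Srxn1 (ENSMUSG00000032802, chromosome 2, 152105516 to 152111376) encodes sulfiredoxin, which repairs peroxiredoxins that peroxide has overoxidised. It had 593, 552 and 518 CPM in WT, against 365, 344 and 308 CPM in Alb/MDA-9. The highest Alb/MDA-9 library was well below the lowest WT library. Srxn1 fell by 0.71 on the log2 scale (SE 0.08, edgeR adjusted p = 0.000132), with log2 changes of -0.82 to -0.65 over the 13 alternative settings, all past the threshold.

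The genes of peroxiredoxin 1, which sulfiredoxin repairs, of peroxiredoxin 6 and of thioredoxin did not pass. Prdx1 had 470 ± 31.9 and 489 ± 15.2 CPM, Prdx6 268 ± 18.8 and 262 ± 11.8 CPM, and the thioredoxin gene Txn1 405 ± 38.9 and 380.02 ± 18.2 CPM (SD, n = 3). Their log2 changes were 0.06, -0.03 and -0.09, with SEs of 0.07, 0.07 and 0.08. Txnrd1, the cytosolic thioredoxin reductase, had 501, 526 and 535 CPM in WT, against 469, 454 and 445 CPM in Alb/MDA-9. Its libraries did not overlap, yet it did not pass (log2 change -0.19, SE 0.07, edgeR adjusted p = 0.0817). It passed as lower with DESeq2, library totals and upper-quartile factors. The mitochondrial reductase Txnrd2 had 22.03 ± 1.24 and 24.3 ± 2.40 CPM and did not pass.

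The autophagy adaptor gene Sqstm1 and the growth inhibitor gene Osgin1 both rose. Sqstm1 (ENSMUSG00000015837, chromosome 11, 50199366 to 50210827) encodes p62, an autophagy adaptor that binds KEAP1 and is itself an NRF2 target. It had 831, 884 and 887 CPM in WT, against 1062, 1075 and 1071 CPM in Alb/MDA-9. The Alb/MDA-9 libraries were nearly equal and above all WT libraries (log2 change 0.30, SE 0.07, edgeR adjusted p = 0.0112). The call was lost without WT 2 or Alb/MDA-9 2, at log2 changes of 0.30 to 0.32 (edgeR adjusted p 0.0507 to 0.0582), and with library totals, at a log2 change of 0.20. Osgin1 (ENSMUSG00000074063, chromosome 8, 119434124 to 119446256), an oxidative stress-induced growth inhibitor, had 323, 307 and 328 CPM in WT, against 381, 400.4 and 473 CPM in Alb/MDA-9. It was highest in Alb/MDA-9 3 and did not overlap between the groups (log2 change 0.39, SE 0.09, edgeR adjusted p = 0.00909). The call was lost without WT 2 (log2 change 0.36, edgeR adjusted p = 0.0618) and with library totals (log2 change 0.29, edgeR adjusted p = 0.0531).

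None of the 4 pentose phosphate genes passed (0 of 4; edgeR adjusted p 0.276 to 0.919). G6pdx, the X-linked gene of glucose-6-phosphate dehydrogenase, which commits glucose to the pathway and makes its first NADPH, had 26.3 ± 0.904 CPM in WT, against 29.8 ± 3.63 CPM in Alb/MDA-9 (SD, n = 3). Pgd, the gene of the second NADPH-making step, had 557 ± 5.62 and 584 ± 58.1 CPM. The genes of the non-oxidative branch, Taldo1 and Tkt, had 112 ± 3.87 and 113 ± 11.1 CPM and 595 ± 12.8 and 554 ± 28.6 CPM. In each of the 4 genes the WT libraries were close together, and in Alb/MDA-9 the lowest value was that of library 1 and the highest that of library 3. A list of 13 further genes of the pathway and of NADPH supply gave 1 lower and 0 higher, 7.69% in either direction against 14.4% of all genes tested. The lower gene was Mthfd1, a folate enzyme gene, from 75.8 ± 2.62 to 58.01 ± 4.94 CPM (log2 change -0.39, SE 0.08, edgeR adjusted p = 0.00646). The falls numbered 2 without WT 1, 4 without Alb/MDA-9 3, 3 with library totals and 2 with upper-quartile factors.

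Of the enzymes that remove superoxide and peroxide, 1 of 3 rose (all genes tested: 7.35% higher). Sod2 (ENSMUSG00000006818, chromosome 17, 13006846 to 13040063), the manganese superoxide dismutase of mitochondria and also a target of NF-kB, had 112.5, 127 and 123.5 CPM in WT, against 138, 141 and 157 CPM in Alb/MDA-9. The groups did not overlap (log2 change 0.26, SE 0.08, edgeR adjusted p = 0.0397). The call was lost without WT 1, WT 2, WT 3, Alb/MDA-9 2 or Alb/MDA-9 3 (log2 change 0.20 to 0.30, edgeR adjusted p 0.073 to 0.133). It also ended with the replicate block (edgeR adjusted p = 0.0525), library totals (log2 change 0.16) and upper-quartile factors (log2 change 0.23). The cytosolic enzyme gene Sod1 had 366 ± 14.9 and 335 ± 30.4 CPM (SD, n = 3), and the peroxisomal catalase gene Cat 572 ± 24.4 and 566 ± 62.1 CPM. Neither passed, and the libraries overlapped, though Sod1 passed as lower with library totals (log2 change -0.24, edgeR adjusted p = 0.0475).

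**Figure D3:**
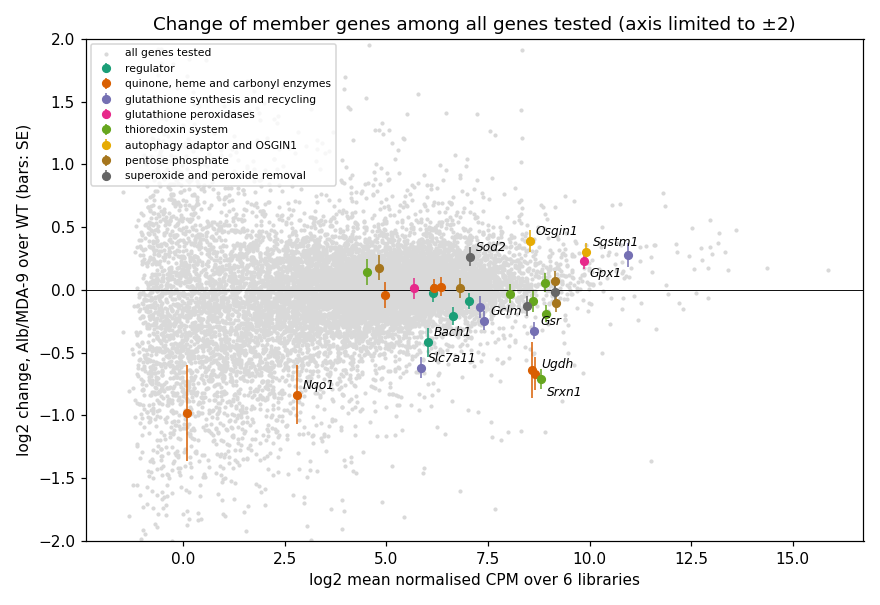
Change of each tested gene, as log2 of Alb/MDA-9 over WT, against its mean normalised CPM over the 6 libraries on a log2 scale. Grey points are all 13296 genes, coloured points are the members by role with SE bars, and named members passed the edgeR test; the vertical axis is limited to changes of at most 2 in size, which leaves out other genes but no member.

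In 16 of the 33 tested members the groups were fully separate, with all Alb/MDA-9 libraries below all WT libraries in 12 and above them in 4. Among all genes tested 33.6% did not overlap, 16.5% lower and 17.1% higher. Of the 12 lower members, Nfe2l2, Mafg, Hmox1, Cbr3 and Txnrd1 did not pass the test. In WT the median coefficient of variation between replicates was 4.27% for the members, against 7.83% for all genes tested. In Alb/MDA-9 it was 8.53% against 10.5%. The median member stood at a higher level than the median of all genes (values below). Members and all genes were not matched for level, and the part of level in this gap was not tested. Alb/MDA-9 3 was the library farthest from the others of its group for 14 of 33 members, 42.4%, against 40.9% of all genes. Alb/MDA-9 1 was farthest for 13 members, 39.4% against 31.3% of all genes. In WT it was most often WT 1, for 18 members, 54.55% against 43.8% of all genes.

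Levels between genes were compared per kilobase of annotated exon, as TMM-scaled RPKM. The 33 tested members spanned a 519.9-fold range in WT, from Cbr3 to Gpx1. Gpx1, Gclc and Txn1 were the most abundant per length, at 589.7 ± 19.98, 477 ± 31.9 and 385 ± 37.0 RPKM (SD, n = 3). Hmox1 at 266 ± 9.41, Sqstm1 at 258 ± 9.42, Cat at 219 ± 9.34 and Srxn1 at 197 ± 13.2 RPKM followed, and the neighbours Hmox1 and Sqstm1 were within their spread. Slc7a11, Txnrd2, Nqo1 and Cbr3 were at the low end, at 5.07 ± 0.163, 5.01 ± 0.282, 5.73 ± 1.60 and 1.13 ± 0.249 RPKM. The regulators lay in between, with Nfe2l2 at 35.3 ± 1.33, Mafg at 19.01 ± 0.767, Keap1 at 15.1 ± 0.920 and Bach1 at 11.98 ± 0.626 RPKM. The median member had 51.6 RPKM, against 4.63 RPKM for the median of all genes tested. In Alb/MDA-9 the means of Sqstm1 (319 ± 1.93 RPKM) and Hmox1 (170 ± 68.8 RPKM) stood in the other order than in WT.

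**Figure D4:**
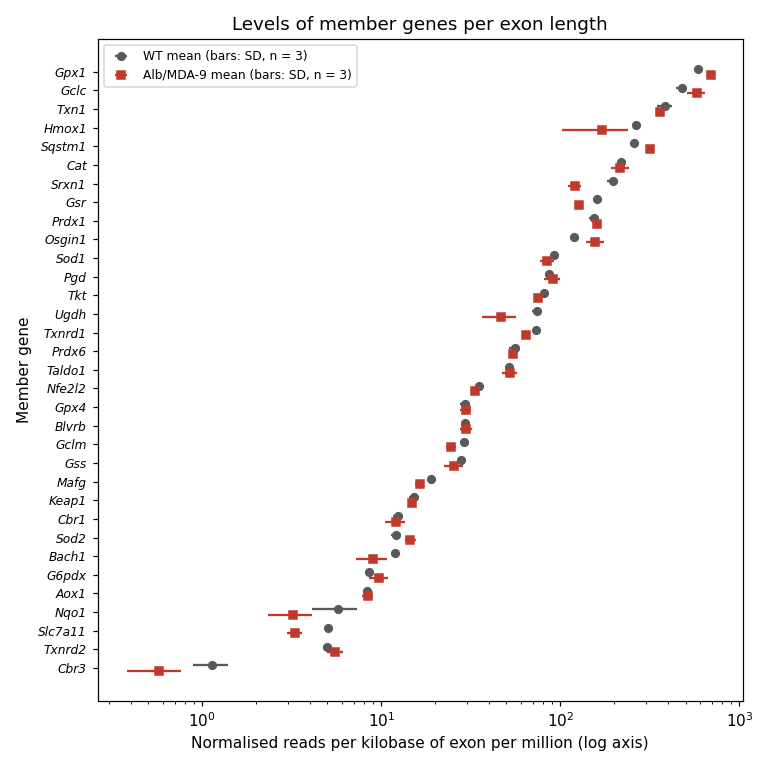
Level of each tested member in RPKM (log axis), as the mean of 3 libraries with the SD, in WT (grey circles) and Alb/MDA-9 (red squares), ordered by the WT level. Gpx1 and Gclc are at the top and Cbr3 at the bottom, and the widest error bars in Alb/MDA-9 belong to Hmox1, Ugdh, Nqo1 and Cbr3.

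Of 13 further tested genes that control NRF2 or pair with its partners, 2 rose and 0 fell, 15.4% in either direction against 14.4% of all genes tested, a share near the background. They were Nfe2l1, which encodes the related factor NRF1, from 189.8 ± 15.6 to 246 ± 16.9 CPM (SD, n = 3), a log2 change of 0.37 with an SE of 0.08 (edgeR adjusted p = 0.00899), and the coactivator gene Crebbp, from 40.5 ± 2.09 to 49.3 ± 1.43 CPM (log2 change 0.28). The ligase genes Cul3 and Rbx1 and the small MAF genes Mafk and Maff did not pass. The Crebbp call was lost without WT 1, WT 2, WT 3, Alb/MDA-9 1 or Alb/MDA-9 2 (log2 change 0.24 to 0.31, edgeR adjusted p 0.0576 to 0.0996), with the replicate block (edgeR adjusted p = 0.0566) and with library totals (log2 change 0.18). Nfe2l1 passed under all 13 alternative settings, though at the threshold in the weakest (highest edgeR or DESeq2 adjusted p = 0.0486).

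Of 30 further NRF2 targets, 8 fell and 1 rose, which is 26.7% lower and 3.33% higher against 7.09% and 7.35% of all genes. This list too was chosen with earlier results of these data known. The largest falls were in Pir, which encodes the iron-binding protein pirin, from 14.9 ± 2.22 to 9.27 ± 0.184 CPM (log2 change -0.68, SE 0.14, edgeR adjusted p = 0.00551), in the glutathione transferase gene Gstm4, from 15.002 ± 0.993 to 10.03 ± 0.633 CPM (log2 change -0.58), and in the nucleotidase gene Entpd5, from 121 ± 5.96 to 84.8 ± 7.15 CPM (log2 change -0.51). All 3 passed under the 13 alternative settings. The other falls were in Slc48a1, Gstm3, Gsta1, Gstm1 and Mt2. The rise was in Ftl1, which encodes the ferritin light chain, from 581 ± 15.9 to 707 ± 60.1 CPM (log2 change 0.28), and this call was lost when WT 2, WT 3 or Alb/MDA-9 2 was left out (log2 change 0.24 to 0.28, edgeR adjusted p 0.109 to 0.134). It also ended with the replicate block (edgeR adjusted p = 0.0582), library totals (log2 change 0.18), upper-quartile factors (log2 change 0.24) and reads of either strand (log2 change 0.11). Ftl1 and Gsta1 have near-identical copies that can share their reads, so their values are uncertain. The falls numbered 5 without WT 1 or WT 2. The median log2 change was -0.19, and -0.29 with library totals.

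Of 22 other redox enzyme genes 6 fell and 0 rose, 27.3% lower and 0% higher against 7.09% and 7.35% of all genes tested. Glrx, which encodes glutaredoxin 1, a glutathione-dependent reductase of protein disulfides, fell from 46.0 ± 4.61 to 25.9 ± 1.81 CPM (SD, n = 3), a log2 change of -0.83 with an SE of 0.10 (edgeR adjusted p = 0.000123). It passed under all 13 alternative settings. Sod3, the extracellular superoxide dismutase gene, fell from 5.28 ± 0.331 to 3.37 ± 0.223 CPM, and Gpx3, the gene of the plasma peroxidase, from 38.5 ± 5.46 to 27.9 ± 3.01 CPM. The Sod3 call ended without any single library except Alb/MDA-9 3 (edgeR adjusted p 0.0527 to 0.144), with the replicate block (edgeR adjusted p = 0.0821) and with DESeq2 (adjusted p = 0.053), and the Gpx3 call without WT 1 or WT 3 (edgeR adjusted p 0.056 to 0.0864). The falls of the list numbered 2 without WT 1, WT 2, Alb/MDA-9 1 or Alb/MDA-9 2 and 3 without WT 3. The peroxiredoxin genes Prdx2, Prdx3, Prdx4 and Prdx5 did not pass, as their relatives Prdx1 and Prdx6 did not.

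**Figure D5:**
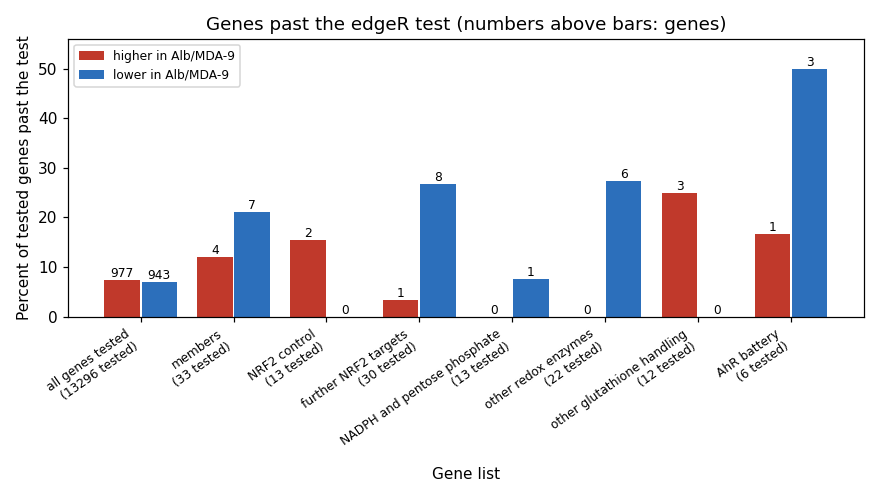
Percent of the tested genes of each list that were higher (red) or lower (blue) in Alb/MDA-9 by the edgeR test, with the number of genes above each bar and the number tested under each name. All genes tested are at 7.35% higher and 7.09% lower, the members at 12.1% and 21.2%, and the further NRF2 targets and other redox enzymes have 26.7% and 27.3% lower.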

How the data were processed

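Per the labels' protocols, a TruSeq RNA kit and a HiSeq3000 were used for RNA of cultured hepatocytes. The submitters' processing notes name STAR 2.7.9a, Trim Galore 0.6.6, edgeR 3.18.1 and FastQC 0.11.2, with mm10 and GRCm38 as builds. For the annotation release and the options, the sources used here give nothing. The deposited values are raw read counts per gene from STAR, in columns for either strand and for each strand. The reverse-strand column was used; it held 96.9% to 97.2% of the reads of both stranded columns. Unmapped, multimapping, unassigned and ambiguous reads (9.22% to 10.4%, 18.7% to 20.2%, 4.90% to 6.01% and 0.791% to 0.835% of reads) were left out, so genes with near-identical copies can lose counts.

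Genes were filtered with filterByExpr (minimum count 10), scaled by TMM factors (1.03 to 1.05 in WT, 0.951 to 0.992 in Alb/MDA-9) and tested in edgeR 4.0.16 (R 4.3.3; glmQLFit and glmQLFTest), without covariates, with Benjamini-Hochberg adjustment over 13296 genes. The same code was also run on simulated counts with planted changes of at least 1.5-fold. Smaller changes, such as those of Gsr and Sqstm1, were not planted. CPM values are TMM-scaled, and RPKM divides them by the union of GENCODE M21 exons. Near-identical transcripts were sought with blastn 2.17.0 (at least 95% identity over 200 bases). Promoters came from RefSeq. All members are named, those that passed or changed at least 1.5-fold with the value of every library. From each other list up to 3 genes in each direction that passed with a mean of at least 1 CPM are named by size of change. The members and lists were chosen with earlier results of these data known. Alternatives were DESeq2 1.42.0, other scalings and filters, unstranded counts, a replicate block and leaving out each library.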

Additional observations from a re-analysis of the deposited data

How the results depend on the processing

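The 13 alternatives were a replicate block, DESeq2, library totals, upper-quartile factors, no low-count filter, a minimum count of 50, counts of either strand, and each of the 6 libraries left out. Of the 11 changed members, Srxn1, Ugdh, Slc7a11 and Gsr passed under all 13, and 0 of the 11 changed sign. The labels give the same-numbered libraries of both groups only a number in common. Their deviations from the group means correlated at -0.04, -8.73e-05 and -0.06 over all genes. With 3 libraries per group this cannot decide whether they were paired or shared a batch. With the replicate block 2 members were higher, NRF2 control genes had 1 higher and further NRF2 targets 0 higher. With library totals 525 genes were higher and 1622 lower, members were 0 higher and 11 lower, NRF2 control genes 1 and 1, further NRF2 targets 0 higher, NADPH genes 3 lower and other glutathione genes 1 lower. With upper-quartile factors members were 2 higher, further NRF2 targets 0 higher and NADPH genes 2 lower. NRF2 control genes had 1 lower without a low-count filter, and further NRF2 targets 0 higher with reads of either strand. Leaving out single libraries gave 499 to 1173 genes higher and 508 to 1212 lower. It gave 0 to 4 members higher and 4 to 7 lower, 1 to 2 NRF2 control genes higher and 0 to 1 lower, 0 to 1 further NRF2 targets higher and 5 to 9 lower, 1 to 4 NADPH genes lower and 2 to 6 other redox enzymes lower. Among members that did not pass, 10 had a change near 0 whose sign moved with a setting. The log2 changes of Blvrb, Aox1, Gpx4, Prdx1, Pgd and Taldo1 were -0.0781, -0.0898, -0.0914, -0.0465, -0.0351 and -0.0854 with library totals. Those of Blvrb, Aox1, Gpx4 and Taldo1 were -0.0130, -0.0255, -0.0272 and -0.0218 with upper-quartile factors, and those of Aox1 and Gpx4 were -0.0012 and -0.0018 at a minimum count of 50. With single libraries left out the ranges were -0.0736 to 0.0070 for Keap1, -0.0352 to 0.0680 for Blvrb, -0.1233 to 0.0552 for Cbr1, -0.0193 to 0.0675 for Aox1, -0.0468 to 0.0600 for Gpx4, -0.0676 to 0.0285 for Prdx6, -0.0573 to 0.0866 for Taldo1 and -0.0965 to 0.0597 for Cat. The cause of these changes of sign was not tested beyond the scaling itself. Members with few reads, Cbr3 and Nqo1, had the largest SEs, 0.38 and 0.23, and Gpx2 could not be tested at this depth.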

Other observations

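Glyoxalase 1 uses glutathione to clear methylglyoxal, and its gene was the most changed of 12 tested genes that handle glutathione outside the members. Of these 12 genes 3 rose and 0 fell, 25% higher and 0% lower against 7.35% and 7.09% of all genes tested. Glo1 (chromosome 17) had 119, 116 and 125 CPM in WT, against 198, 214 and 203 CPM in Alb/MDA-9, all above WT (log2 change 0.77, SE 0.07, edgeR adjusted p = 1.67e-05). Glo1 passed under the 13 alternative settings. Gm13443, a processed pseudogene 99.5% identical to Glo1 over 555 bases, had 8.90 CPM in WT, against 24.4 CPM in Alb/MDA-9, so reads of both cannot be fully separated. Ggct, which encodes a cyclotransferase of glutathione breakdown, rose from 10.3 ± 0.470 to 15.4 ± 2.02 CPM (SD, n = 3; a log2 change of 0.58), and its call ended without WT 2 (log2 change 0.54, edgeR adjusted p = 0.0643). The dipeptidase gene Cndp2, whose enzyme splits cysteinylglycine, rose from 279.9 ± 8.22 to 371 ± 16.5 CPM (log2 change 0.41).

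The aryl hydrocarbon receptor AhR also induces Nqo1. Of 6 tested genes of its battery 3 fell and 1 rose, 50% lower and 16.7% higher against 7.09% and 7.35% of all genes tested. Ahrr, Cyp1b1 and Aldh3a1 had too few reads to be tested. The receptor gene Ahr rose from 68.2 ± 3.90 to 105 ± 10.5 CPM (SD, n = 3), a log2 change of 0.62 with an SE of 0.09 (edgeR adjusted p = 0.00046). Its target genes Cyp1a1, Tiparp and Cyp1a2 fell. Cyp1a1 went from 2.23 ± 0.617 to 0.410 ± 0.217 CPM (log2 change -2.43). It was near the floor in Alb/MDA-9 1 to 3, at 0.166, 0.582 and 0.482 CPM, where 3 reads are 0.158 to 0.179 CPM. The size of its change is therefore uncertain. Tiparp went from 95.2 ± 10.4 to 59.5 ± 15.5 CPM (log2 change -0.68) and Cyp1a2 from 67.6 ± 5.65 to 42.97 ± 3.21 CPM (log2 change -0.65). The Tiparp call ended without WT 1 (log2 change -0.59, edgeR adjusted p = 0.0517). No relation between these genes and the members was tested.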
